A study of Homo sapiens with 4 samples.

Results

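The core histone genes are the genes of H2A, H2B, H3 and H4 that serve DNA replication. In the count table, 60 of 19901 genes had a symbol made of H2AC, H2BC, H3C or H4C and a number: 15 H2A, 19 H2B, 11 H3 and 15 H4 genes. Of these, 47 lay on chromosome 6, 11 on chromosome 1, 1 on chromosome 12 and 1 on chromosome 21. The counts came from TT-Seq of HCT116 cells, a human colon cancer line, in which KAP1 carries a dTAG degron (genotype KAP1_dTAG_CloneD5, a single clone, in all libraries). Cells received DMSO, the vehicle, or dTAG, the compound that directs the tagged KAP1 to degradation, for 8 h, and then 500 μM 4-thiouridine (4sU) for 10 min, with 2 libraries per condition. 4sU enters new transcripts, so each count stands for RNA made in or near the pulse, and the libraries were made by removing ribosomal RNA and not by selecting poly(A) tails. The study's methods call the libraries of a condition biological replicates, and p-values measure the spread between these 2. Because the degron acts on the protein, no RNA count checks the depletion.

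Core histone genes supply the octamer around which DNA is wrapped, made of H2A-H2B dimers and an H3-H4 tetramer. They lie in clusters, have no introns in their coding part, and are transcribed mainly in S phase, when NPAT at the histone locus body drives them. Their mRNA ends not in a poly(A) tail but in a stem-loop, which the stem-loop binding protein SLBP holds and which the U7 machinery cuts behind. Many H2A and H2B genes stand head to head and share 1 promoter.

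The promoters are shown because they set the classes apart. RefSeq promoters, 250 bases before to 50 after a start in GRCh38.p14, matched 54 of the 60 genes, with 58 promoters in all. TATAAA, on either strand, was in 67.2% of these and in 11.5% of all 35116 promoters. CCAAT was in 82.8% against 34.6%, and in all of the H2A, H2B and H3 promoters but 23.1% of the H4 promoters. ATTTGCAT, the octamer that OCT1 binds, was in 46.6% against 1.77%: in 78.6% of H2A, 75.0% of H2B, 9.09% of H3 and none of the 13 H4 promoters. These are matches of letters, not sites of binding. The H3 promoter with ATTTGCAT is one listed for H3C4 that has the same sequence as that of H2AC7. The promoter next to H3C4 had no such match, and DNA between paired genes is listed for each partner. In the 4 promoters that follow, capitals mark any of the 3 motifs on either strand. That of H2AC11 also serves H2BC11, which runs the other way and has its own TATA letters near the left end. H3C10 had the largest change in nascent RNA, H4C4 is a well-counted H4 gene, and H3C7 had no count in any library.
H2AC11 promoter, chr6:27132793-27133092, + strand: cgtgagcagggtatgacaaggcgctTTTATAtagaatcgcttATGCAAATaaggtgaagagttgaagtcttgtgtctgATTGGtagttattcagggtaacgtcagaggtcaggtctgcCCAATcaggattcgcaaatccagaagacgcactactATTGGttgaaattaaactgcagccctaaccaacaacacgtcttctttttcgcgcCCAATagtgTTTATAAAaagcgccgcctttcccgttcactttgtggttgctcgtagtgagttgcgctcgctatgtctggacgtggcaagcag
H3C10 promoter, chr6:27809801-27810100, + strand: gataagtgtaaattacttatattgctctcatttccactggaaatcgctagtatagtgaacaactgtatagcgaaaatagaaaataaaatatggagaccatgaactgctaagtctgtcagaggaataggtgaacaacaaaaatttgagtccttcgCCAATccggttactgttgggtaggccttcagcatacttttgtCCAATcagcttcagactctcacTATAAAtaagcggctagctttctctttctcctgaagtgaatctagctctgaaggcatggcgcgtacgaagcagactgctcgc
H4C4 promoter, chr6:26189063-26189362, − strand: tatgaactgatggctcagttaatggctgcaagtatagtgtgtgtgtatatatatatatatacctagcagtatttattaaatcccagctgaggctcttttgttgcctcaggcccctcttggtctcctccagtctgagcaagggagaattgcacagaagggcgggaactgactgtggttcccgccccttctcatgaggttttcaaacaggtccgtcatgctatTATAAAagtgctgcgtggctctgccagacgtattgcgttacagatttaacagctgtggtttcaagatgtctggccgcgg
H3C7 promoter, chr6:26250586-26250885, − strand: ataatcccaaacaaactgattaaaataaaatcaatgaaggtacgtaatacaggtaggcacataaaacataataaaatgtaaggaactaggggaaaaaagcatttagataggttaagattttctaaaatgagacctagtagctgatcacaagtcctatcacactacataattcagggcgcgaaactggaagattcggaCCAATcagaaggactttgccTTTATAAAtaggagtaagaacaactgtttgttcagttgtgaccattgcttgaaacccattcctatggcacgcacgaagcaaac
Among genes with enough counts to test, 75.7% of promoters had TATAAA, against 52.4% among the others, and for CCAAT the shares were 81.1 and 85.7%. The letters of H3C7 show that a gene without counts can hold the same motifs as H3C10.

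The stem-loop is shown because it is the part of the RNA that these genes share. It was found in hg38 behind the stop codon of 59 of 60 genes, at 22 to 62 bases with a median of 35, in 10 forms. It was not found within 150 bases for H2BC12L. Capitals mark the paired arms, and the 4 forms held by more than 1 gene follow, each with an example.
Form of 32 genes (11 H2A, 12 H2B, 9 H3), as in H3C10, chr6:27810516-27810531, + strand: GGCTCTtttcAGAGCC
Form of 10 genes (all H4), as in H4C4, chr6:26188715-26188730, − strand: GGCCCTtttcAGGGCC
Form of 7 genes (5 H2B, 1 H2A, 1 H3), as in H2BC7, chr6:26199968-26199983, + strand: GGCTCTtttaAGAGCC
Form of 4 genes (all H4), as in H4C12, chr6:27831178-27831193, − strand: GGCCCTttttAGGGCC
All 15 H4 genes had the arms of the H4 forms shown, and no gene of another class had both. In 21 of the tested genes the stem-loop lay inside the interval in which the authors counted reads, and in 17 outside it, with median log2 fold changes of −0.61 and −0.59.

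Library totals were 93105627 to 102314741 gene counts. Core histone genes took 0.274% of them in DMSO 1 (95% Wilson interval 0.273 to 0.275%), 0.350% in DMSO 2 (0.349 to 0.351%), 0.214% in dTAG 1 (0.213 to 0.215%) and 0.188% in dTAG 2 (0.188 to 0.189%). Both dTAG libraries lay below both DMSO libraries, and the intervals cover counting error only. The share of ERCC spike-in RNA followed the same order of libraries. It was 0.0150% of the gene total in DMSO 1, 0.0265% in DMSO 2, 0.0136% in dTAG 1 and 0.0103% in dTAG 2. By the study's methods this RNA was added to nascent RNA already purified, at library preparation, so it does not measure RNA per cell. Its part in the results was not tested. Of the markers of a colon epithelial line, 6 of 8 had at least 50 counts in every library, while VIL1 had 1 to 15 and CEACAM5 none. Of other cell types, PTPRC had 0 to 1 counts, PECAM1 24 to 39, ALB 3 to 15 and COL1A1 420 to 538.

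Nascent RNA of the core histone genes was lower with dTAG in every class and on every chromosome with a tested gene. Of the 60 genes, 38 had at least 50 counts in all libraries and were tested: 11 H2A, 13 H2B, 5 H3 and 9 H4 genes, with 375 to 24598 counts. In the quasi-likelihood test of edgeR, 36 of the 38 were lower at a Benjamini-Hochberg adjusted p under 0.05, where 3.66% of all 12612 tested genes were. None was higher, also by DESeq2, which called 37 lower against 4.61% of all tested genes, and at an unadjusted p under 0.05 all 38 were lower. Past a 1.5-fold change, 21 were lower, against 1.13% of all tested genes. Of the 27 in which at least 90% of 50-base windows occur once in the genome, 25 were lower. The median log2 fold change was −0.60, in a range of −0.86 to −0.31 with standard errors of 0.088 to 0.17, and that of all tested genes was −0.015. These are levels relative to total gene counts: with ERCC totals as library sizes, the median of all tested genes moved to 0.63 and that of the core histone genes to 0.059, a difference of −0.57 from it, and no gene of the table was called in either direction. None of the 38 then passed an unadjusted p of 0.05 either, but only 229 of all 12612 tested genes did. ERCC totals, from RNA added after purification, give no level per cell.

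**Figure D1:**
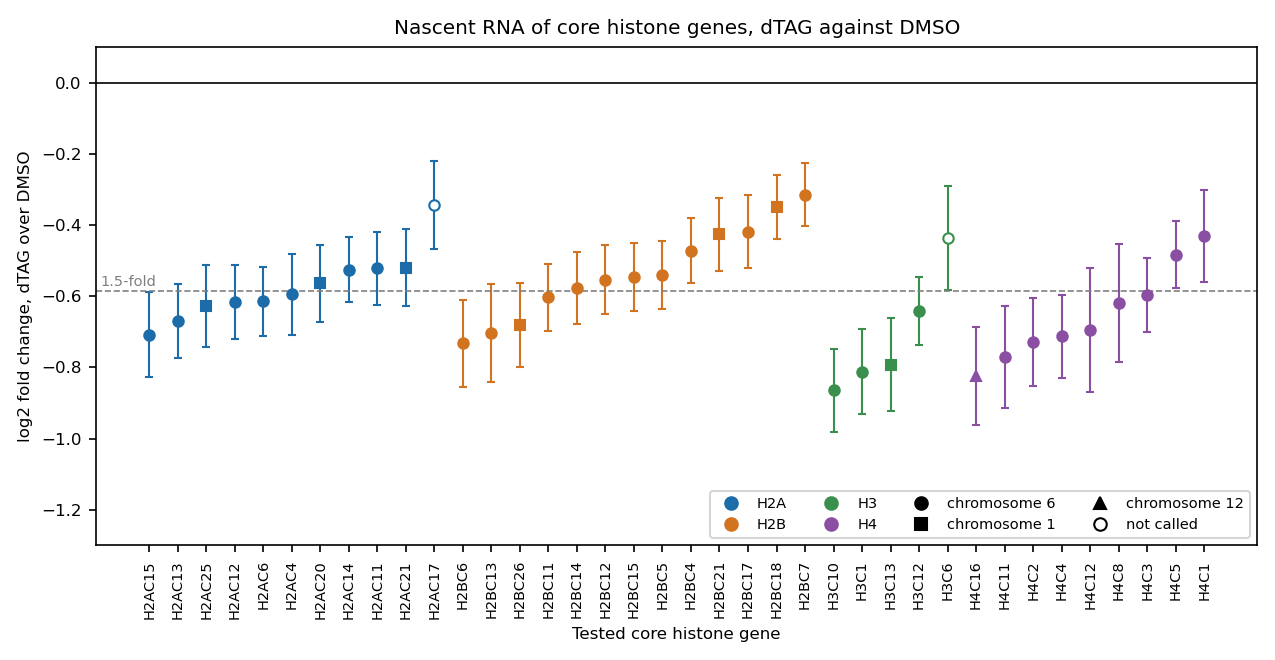
Log2 fold change of nascent RNA, dTAG over DMSO, for each of the 38 tested core histone genes by class; bars are standard errors, marker shapes give the chromosome and open markers the 2 genes not called. All 38 points lie below 0 with library sizes from gene counts, between −0.86 and −0.31, and with ERCC totals as library sizes their median is 0.059.

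In all 38 genes both dTAG libraries were below both DMSO libraries, as in 30.7% of all tested genes. The libraries of a condition were also unequal. Relative to the DMSO mean, the median gene stood at −0.13 in DMSO 1, 0.13 in DMSO 2, −0.49 in dTAG 1 and −0.71 in dTAG 2 on the log2 scale, with a pooled SD of 0.17 within conditions. The order DMSO 2, DMSO 1, dTAG 1, dTAG 2 held for 37 of 38 core histone genes and for 16.5% of all tested genes. The number of calls changed with the dTAG libraries used: 22 of 38 genes were called without dTAG 1, where 0.571% of all tested genes were, and 5 of 38 without dTAG 2, where 0.167% were. The 5 were H2BC6, H3C1, H3C10, H3C13 and H4C16, and the median of the 38 was −0.50 without dTAG 2.

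**Figure D2:**
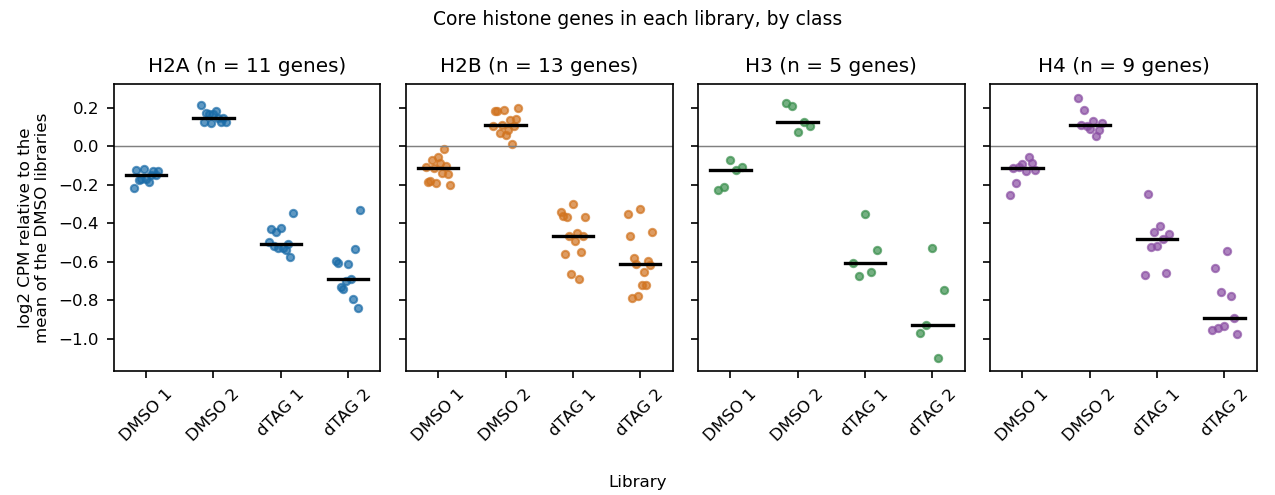
Level of each tested gene in each library, as log2 CPM (counts scaled to library size) relative to the mean of both DMSO libraries, in a panel per class; points are genes and lines medians. With library sizes from gene counts, DMSO 2 stands above DMSO 1 in every class, and the medians of dTAG 2 lie lowest, from −0.61 in H2B to −0.93 in H3.

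H2A forms the dimer with H2B on the outer face of the nucleosome. Of 11 tested H2A genes, 10 were lower, 6 of them past 1.5-fold, with a median of −0.59. Levels are given in CPM scaled by TMM, in the order DMSO 1, DMSO 2, dTAG 1, dTAG 2. H2AC20, at chr1:149886974-149887364 in hg38, had the highest level per kb of counted interval among all 38, at 470.0 CPM per kb with DMSO. These intervals, set by the gene model, ran from 313 to 29686 bases. Long ones can extend far past the stem-loop, so values per kb do not rank transcription. The values of H2AC20 were 157, 211, 129 and 120 CPM, a log2 fold change of −0.56 (SE 0.11, edgeR adjusted p = 0.0033). The dTAG libraries lay close together and below both DMSO libraries, which differed more. H2AC14, second per kb among H2A genes, stood at 98.8, 118, 76.1 and 74.6 CPM (−0.53, SE 0.091). Only 69.6% of the 50-base windows of H2AC20 and 16.5% of those of H2AC14 occur once in the genome, so their counts may be split with near-identical copies. When the trends of fold change with GC content and length over all genes were removed, neither was called, H2AC20 at −0.15 (edgeR adjusted p = 0.19) and H2AC14 at −0.12 (edgeR adjusted p = 0.19). H2AC15 had the largest H2A change, with 29.3, 36.1, 21.8 and 18.2 CPM (−0.71, SE 0.12, edgeR adjusted p = 0.0010). It lies on the opposite strand inside H2BC15. H2AC17 was the H2A gene not called, at 16.1, 19.2, 13.8 and 14.0 CPM (−0.34, SE 0.12, edgeR adjusted p = 0.088). Its groups did not overlap, but its lower DMSO library was close to the dTAG libraries. The counted interval of H2AC17, chr6:27892756-27893149, lies mostly within that of H3C12 on the same strand, chr6:27890381-27893106. Reads in the shared part may not have been counted. H2AC21 had 32.7, 38.8, 26.4 and 23.4 CPM (−0.52, SE 0.11), and H2AC25 had 34.96, 44.4, 27.5 and 23.8 CPM (−0.63, SE 0.12). Both lie on chromosome 1 and were called, but H2AC21 was at −0.11 (edgeR adjusted p = 0.25) with these trends removed. The other 5 tested H2A genes, H2AC4, H2AC6, H2AC11, H2AC12 and H2AC13, were lower at −0.67 to −0.52.

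H2B, the partner of H2A, had a median of −0.55, and all 13 tested genes were lower, 4 of them past 1.5-fold. Its median was the highest of the classes except with these trends removed or with the ERCC factor, a covariate estimated from the ERCC RNAs. With ERCC totals as library sizes it was above 0, at 0.12. Per kb of counted interval the highest levels were those of H2BC17 and H2BC12. H2BC17 stood at 124, 163, 110 and 104 CPM (−0.42, SE 0.10, edgeR adjusted p = 0.019), and H2BC12 at 115, 139, 92.5 and 80.6 CPM (−0.55, SE 0.097). The highest dTAG value of H2BC17 was near its lower DMSO value, while those of H2BC12 were further apart. With trends removed H2BC17 was not called, at −0.046 (edgeR adjusted p = 0.69), nor with the ERCC factor, at −0.12 (edgeR adjusted p = 0.25). H2BC6 had the largest H2B change, with 24.7, 32.1, 17.8 and 16.4 CPM (−0.73, SE 0.12, edgeR adjusted p = 1.0e-03). H2BC7 had the smallest change of all 38 genes, with 56.7, 61.3, 47.8 and 47.1 CPM (−0.31, SE 0.088, edgeR adjusted p = 0.036). Its libraries lay close together within each condition, and it was called although its change was small. On chromosome 1, H2BC18 stood at 135, 156, 115 and 114 CPM (−0.35, SE 0.089), H2BC21 at 160.0, 206, 141 and 131 CPM (−0.43, SE 0.10) and H2BC26 at 33.3, 42.9, 25.7 and 21.9 CPM (−0.68, SE 0.12). H2BC18 and H2BC21 were thus the less lowered of these 3 genes, and H2BC26 lies at another site of the chromosome. With the ERCC factor H2BC21 was at −0.15 (edgeR adjusted p = 0.12). H2BC5, counted over an interval of 13205 bases, had the highest CPM of the 38 when length is left aside, with 211, 247, 166 and 149.5 CPM (−0.54, SE 0.095). Of the other tested H2B genes, H2BC13 at −0.70, H2BC11 at −0.60, H2BC14 at −0.58, H2BC15 at −0.55 and H2BC4 at −0.47 were lower. Windows that occur once made up 25.8% of H2BC12, 28.3% of H2BC18, 85.1% of H2BC26 and 86.5% of H2BC17.

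H3, whose tail carries the lysine that KAP1-linked methyltransferases mark, had the largest median change, −0.79, with 4 of 5 tested genes lower, each past 1.5-fold. H3C10, at chr6:27810063-27811300, had 72.5, 86.3, 50.4 and 36.8 CPM and fell by 45.1% (−0.86, SE 0.12, edgeR adjusted p = 9.3e-05). It was the largest change of all 38, and dTAG 2 stood well below dTAG 1. H3C1 had 45.6, 61.1, 33.0 and 27.7 CPM (−0.81, SE 0.12, edgeR adjusted p = 2.7e-04). H3C13, on chromosome 1, had 36.6, 50.05, 28.2 and 21.9 CPM (−0.79, SE 0.13), with 19.8% of windows found once. H3C1 and H3C13 had the highest levels per kb of counted interval among the H3 genes, at 129 and 105 CPM per kb with DMSO. H3C6 was not called, with 9.22, 10.2, 7.61 and 6.73 CPM (−0.44, SE 0.15, edgeR adjusted p = 0.069). It is among the least counted of the tested genes. H3C12 was at −0.64 (SE 0.094). A row whose identifier has no symbol lies at the position of H3C2 and was left out of the 60. It had 136, 167, 101 and 83.4 CPM (−0.71, SE 0.10, edgeR adjusted p = 2.7e-04), the highest level among rows at H3 genes.

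H4, which pairs with H3, had a median of −0.70, and all 9 tested genes were lower, 7 past 1.5-fold. H4C4 stood at 44.1, 50.03, 32.8 and 24.6 CPM (−0.71, SE 0.12, edgeR adjusted p = 8.4e-04) and H4C3 at 59.8, 69.2, 47.2 and 38.0 CPM (−0.60, SE 0.10). Per kb of counted interval they stood highest of the H4 genes, at 150.4 and 148 CPM per kb with DMSO. Their order does not exceed the spread between libraries. H4C5 had more CPM, 122 and 146 with DMSO, but over an interval of 1488 bases that runs past its stem-loop. H4C16, alone on chromosome 12 at chr12:14767998-14771131, had the largest H4 change, with 25.5, 36.3, 19.2 and 15.7 CPM (−0.82, SE 0.14, edgeR adjusted p = 0.0010). The gene far from both clusters was thus lowered as well. H4C1 had the smallest, with 21.01, 24.5, 19.1 and 14.6 CPM (−0.43, SE 0.13, edgeR adjusted p = 0.048). Its dTAG 1 value was close to DMSO 1, and it was not called with trends removed, at −0.044 (edgeR adjusted p = 0.76), or with the ERCC factor, at −0.19 (edgeR adjusted p = 0.37). Of the others, H4C11 stood at −0.77, H4C2 at −0.73, H4C12 at −0.70, H4C8 at −0.62 and H4C5 at −0.48. The calls of H4C8 (−0.50, edgeR adjusted p = 0.12) and H4C12 (−0.41, edgeR adjusted p = 0.20) were lost with the ERCC factor, and that of H4C12 (−0.27, edgeR adjusted p = 0.17) with trends removed. H4C11 and H4C12 have 8.31 and 0% of windows found once.

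The class medians were ordered H3, H4, H2A and H2B from most to least lowered, and the classes overlapped in range: −0.86 to −0.44 for H3, −0.82 to −0.43 for H4, −0.71 to −0.34 for H2A and −0.73 to −0.31 for H2B. No test was made between classes, since genes of a class are not replicates. H3 had the lowest class median under all 15 settings of normalization, filter, test and libraries that were fitted. These settings share the same libraries. The rest of the order turned: H2A was less lowered than H2B with trends removed (−0.23 and −0.41) and with the ERCC factor (−0.32 and −0.34), H2B was also lower than H4 (−0.39) with trends removed, and H2A (−0.51) was lower than H4 (−0.48) without dTAG 2. Of core histone counts, H3 took 9.12 and 9.20% with DMSO and 8.35 and 7.61% with dTAG, and H2B 44.4 and 43.6% with DMSO and 45.4 and 46.8% with dTAG. For both classes the conditions did not overlap, and no interval was wider than 0.233 percentage points to either side. H2A shares of 33.6 and 34.4% with DMSO and 33.4 and 33.7% with dTAG overlapped, as did H4 shares of 12.9 and 12.8% against 12.8 and 11.9%. All these shares leave out the row at H3C2, with 13420, 16682, 10125 and 7521 counts. It had more counts than any H3 gene in the shares, so H3 shares with it would be higher. With 2 libraries against 2, an exact two-sided permutation test cannot go below p = 0.333.

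Pairs of H2A and H2B genes that start head to head were found from the ends of the counted intervals. The 8 tested pairs, with 218 to 330 bases between them, were lower in both partners. Their log2 fold changes differed by 0.034 to 0.14, with a median of 0.069. Each difference was within 2 SE of 0, with the SE combined as if the partners were independent. Partners were measured in the same libraries, so this SE does not measure the spread of their difference. Whether partners differ was not tested. Of the 8, H2AC6 at −0.61 and H2BC4 at −0.47 were furthest apart, by 0.14 with an SE of 0.13. H2AC13 at −0.67, with 37.8% of windows found once, and H2BC13 at −0.70 were closest. H2AC11 and H2BC11, which share the first promoter shown, stood at −0.52 and −0.60. The H2A gene was the more lowered in 3 of these 8 pairs. H2AC15 and H2BC15 also start head to head by their promoters, but their counted intervals overlap, so they were not among the 8. They stood at −0.71 and −0.55, further apart than any of the 8.

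The chromosome 6 and chromosome 1 clusters were both lowered. On chromosome 6, 28 of 30 tested genes were lower and 17 past 1.5-fold, with a median of −0.60. On chromosome 1, all 7 were lower and 3 past 1.5-fold, with a median of −0.56. Shares of core histone counts again leave out the row at H3C2, which lies on chromosome 6. The chromosome 6 genes took 77.5 and 76.4% with DMSO and 76.6 and 75.7% with dTAG. Those on chromosome 1 took 21.5 and 22.5% against 22.5 and 23.5%. The shares of dTAG 1 and DMSO 2 were within 0.233 percentage points of each other. Within a class, H2A genes had medians of −0.60 on chromosome 6 and −0.56 on chromosome 1, and H2B genes −0.55 and −0.43. The difference between clusters was not tested. The chromosome 6 median was the lower under 12 of the 15 settings, and the higher without a count filter, without DMSO 1 and without dTAG 2. Within chromosome 1, the 5 tested genes at chr1:149782688-149887916 had a median of −0.52, and H2AC25 and H2BC26, at chr1:228456978-228460470, one of −0.65. On chromosome 6, genes more than 300000 bases apart make 3 stretches. At chr6:25726131-26285638, 13 of 14 tested genes were lower (median −0.60). At chr6:27125896-27147515 it was 4 of 4 (−0.58), and at chr6:27807443-27893843 it was 11 of 12 (−0.66). All 3 stretches thus held lowered genes.

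**Figure D3:**
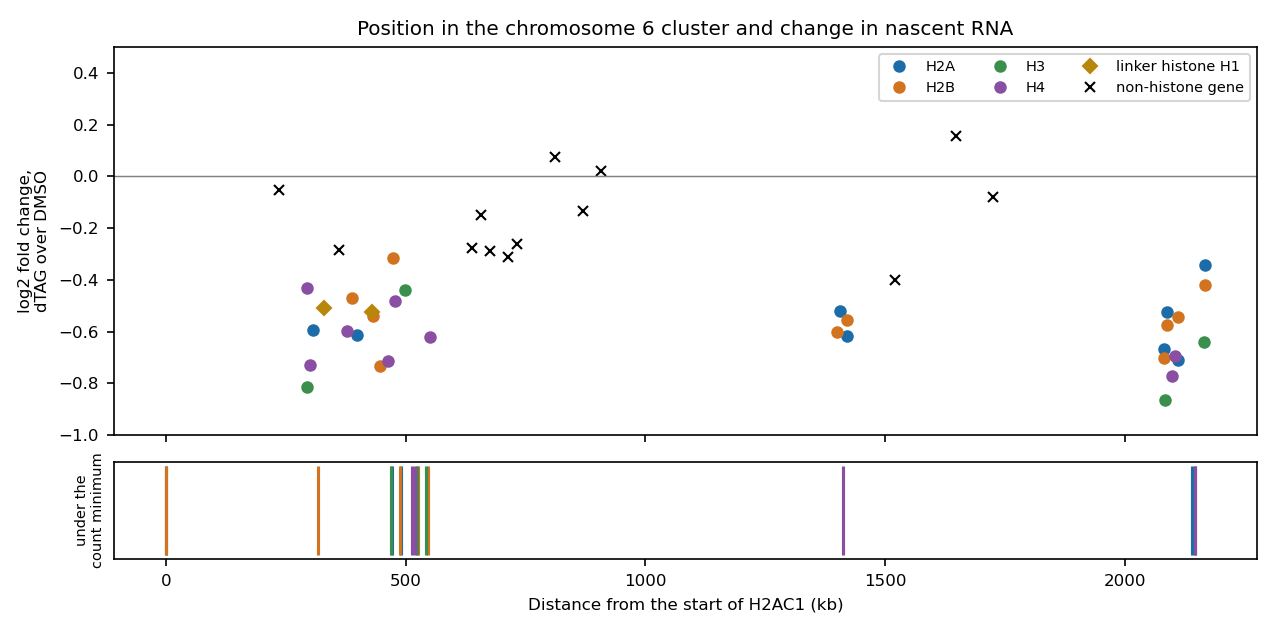
Log2 fold change, dTAG over DMSO, by distance from the start of H2AC1 in kb, for the 30 tested core histone genes, 2 linker histone genes and 13 non-histone genes of the chromosome 6 cluster; the lower strip marks the core histone genes under the count minimum in the colour of their class. Core histone genes lie at −0.86 to −0.31 in all 3 stretches and the non-histone genes between them at −0.40 to 0.16; with ERCC totals as library sizes both groups move upward.

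Non-histone genes within the chromosome 6 cluster were not called in the main fit. Of 13 tested, 0 passed edgeR's quasi-likelihood test or DESeq2. Of all tested genes these called 3.66 and 4.61% lower, so 0 of 13 is near the shares over the table. Of the 13, 10 lay below 0, 2 were lower at an unadjusted p under 0.05, and the median was −0.15. They run from PRSS16 at −0.40 to ZNF391 at 0.16. With GC and length trends removed, 1 of the 13 was called lower, against 7.46% of all tested genes, and the median was −0.17. On chromosome 1, BOLA1, which lies next to H2AC21, had 10.6, 11.7, 8.31 and 6.62 CPM and was lower (−0.58, SE 0.15, edgeR adjusted p = 0.023). Its groups did not overlap.

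The 22 core histone genes under the count minimum had at most 28 counts in any library, and 11 had 0 in all. A count of 0 allows up to 3 counts in a library. By their gene models and sequence they made sets of 3, 6 and 13 genes. H3C4 and H2AC7 lie inside ENSG00000282988 and H2AC16 inside H2BC15 on the same strand, and all 3 were at 0, as were all 420 genes of the table so placed. Of 575 genes inside a gene of the opposite strand only, 19.5% were at 0. The row of ENSG00000282988, which spans H3C4 and H2AC7, had 42.8, 51.9, 25.4 and 23.4 CPM (−0.96, SE 0.11, edgeR adjusted p = 1.3e-05), and the signal of these genes may lie there. In 6 genes, H3C14, H3C15, H4C14, H4C15, H2BC9 and H2BC12L, under 90% of windows occur once, and they had 0 to 18 counts. The other 13, of which 6 were at 0 in every library, had 90% or more of windows found once and no same-strand gene over them. They include H4C6, H4C7, H3C7, H3C8, H3C11 and H4C13 at 0 and H2BC10 at 0 to 2, while their neighbors H4C8 and H3C12 had up to 7.39 and 99.1 CPM. H2AC1 and H2BC1, the testis pair at the cluster's start, had 0 to 7 counts. Why the uniquely placed genes had so few counts was not tested.

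Other histone genes changed in part. Of the linker histones H1, which bind the DNA between nucleosomes, 2 of 6 were tested and both were lower. H1-2 stood at 239, 318, 202 and 189 CPM (−0.51, SE 0.11) and H1-4 at 273, 373, 231 and 218 CPM (−0.52, SE 0.11). Like core histone genes, they were highest in DMSO 2. Of 11 replacement variants, which are placed outside replication, 4 were lower, with a median of −0.14 over the 11. H2AJ, at 9.05, 10.3, 5.55 and 5.25 CPM, changed most (−0.84, SE 0.15), followed by H1-10 (−0.78, SE 0.12). H2AX, which marks DNA breaks when phosphorylated and whose RNA can also end in a stem-loop, was at −0.50 and H3-3B at −0.34. H2AZ1, H2AZ2, H3-3A, CENPA and both macroH2A genes were not called, at −0.14 to 0.064, nor was H3-5, at −0.51 (SE 0.29) with 66 to 132 counts. Of the 8 genes called in this and the other companion groups, 3 were called without dTAG 1 (H1-10, H2AJ and H2AX) and 1 without dTAG 2 (H1-10).

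Genes that activate core histone genes or process their RNA were not called lower. Of 19 tested, 0 were lower by edgeR's quasi-likelihood test, by DESeq2 or at an unadjusted p under 0.05, and NPAT was higher. Of all tested genes, 3.66% were lower by edgeR and 4.61% by DESeq2, so 0 of 19 is near these shares. NPAT stood at 88.4, 76.5, 101 and 103 CPM (0.31, SE 0.088, edgeR adjusted p = 0.037), but its edgeR adjusted p was 0.074 with upper-quartile factors, 0.38 with the ERCC factor, 0.40 without dTAG 1 and 0.87 without dTAG 2. SLBP stood at 134, 145, 134 and 140.1 CPM (−0.026, SE 0.085), HINFP, an activator of H4 genes, at −0.17 and CASP8AP2, a part of the histone locus body, at 0.11. These 3 were not called. Of 36 genes of S phase, such as those of the MCM helicase, 35 were tested. None was called by edgeR's quasi-likelihood test and 1, higher, by DESeq2. At an adjusted p under 0.05, edgeR called 7.1% of all tested genes in either direction. At an unadjusted p under 0.05, 1 of the 35 was lower and 10 higher, with no share over all tested genes to set beside them. The median of the 35 was 0.073. In a bulk library, fewer cells in S phase and less histone RNA per cell cannot be told apart.

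**Figure D4:**
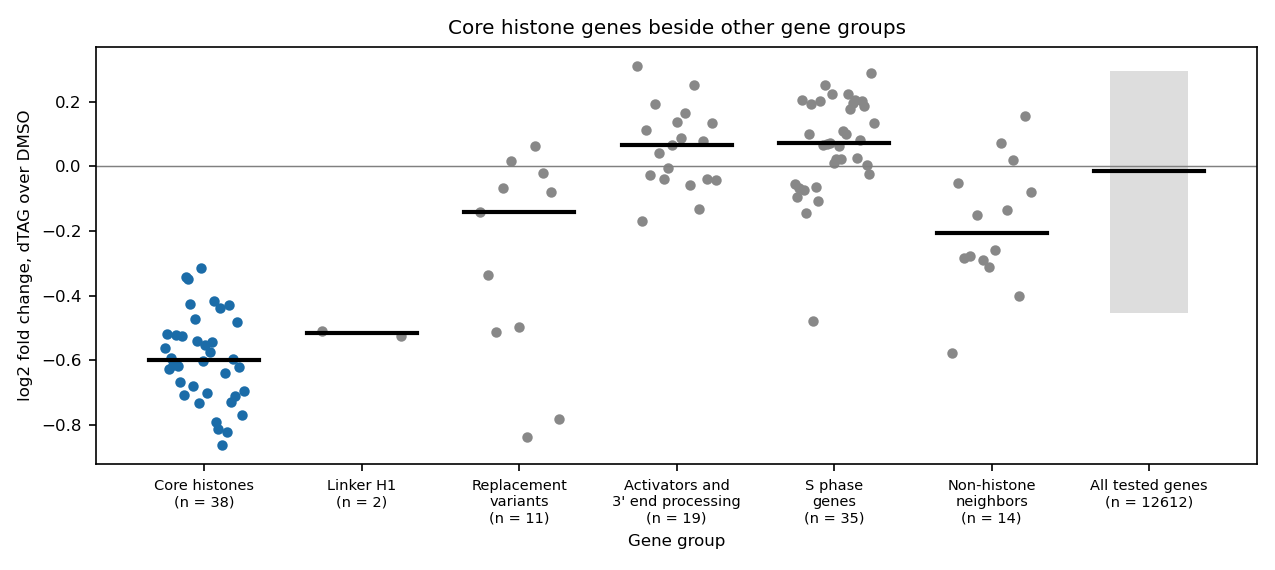
Log2 fold change, dTAG over DMSO, of the core histone genes and of other gene groups; points are genes, lines medians, and the grey bar spans the 5th to 95th percentile of all 12612 tested genes, −0.45 to 0.30. Core histone genes (median −0.60) lie below the activators and 3' end processing genes (0.068) and S phase genes (0.073); with ERCC totals as library sizes the 3 medians are 0.059, 0.68 and 0.73.

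Short and GC-rich genes were lower across the table. Over all 12612 tested genes, the log2 fold change had a Spearman correlation of −0.56 with the GC content of the gene interval and 0.42 with its length, as a description. Within a condition, DMSO 2 over DMSO 1 followed GC content with a rho of 0.75, and dTAG 2 over dTAG 1 with −0.43. Among the 38 core histone genes the correlation was −0.21 with GC content, which ran from 37.9 to 67.5%, and 0.082 with length. GC content and length here are those of the interval and may not be those of the RNA. The interval of H2BC18, of 29686 bases, runs far past its stem-loop. The 21 tested core histone genes with an interval under 1000 bases had a median of −0.62, with 20 called. The 17 with longer intervals had −0.55, with 16 called. Of 21 non-histone genes as short, 0 were lower by edgeR or DESeq2, where 3.66 and 4.61% of all tested genes were. At an unadjusted p under 0.05, 5 of the 21 were lower, and the median of the 21 was −0.15. Of these, the 9 with GC content at or above the lowest of the short core histone genes, a group formed after the values were seen, all lay below 0 with a median of −0.39. None of the 9 was called by either tool, and 4 were lower at an unadjusted p under 0.05. With each library's trend on interval GC content and length removed, 31 of 38 core histone genes were lower, against 7.46% of all tested genes. The core histone median was −0.38, and the median of the 9 was −0.026. H2AC17 then stood at 0.058, and neither H1-2 nor H1-4 was called.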

How the data were processed

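The authors counted 50-base read pairs over whole protein-coding genes and ERCC spike-ins with featureCounts (Subread 1.6.3), after Trim Galore 0.6.4 and mapping to hg38 with STAR, and deposited raw counts, not normalized, of 4 libraries (19901 genes, 92 ERCC RNAs). The strand setting is not given in the sources used here. Genes nested in a same-strand gene were all at 0, and their reads may not have been counted. Low totals widen the standard errors, up to 0.17 for a gene with under 1000 counts.

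The 12612 genes that reached 50 counts in every library were tested. Log2 fold changes, dTAG over DMSO, and p-values came from edgeR 4.0.16 (R 4.3.3) with TMM factors of 0.970 to 1.05 and its two-sided quasi-likelihood test, adjusted over all tested genes after Benjamini and Hochberg. Standard errors are the log2 fold change over the square root of F. On simulated data with 12575 tested genes, the fit recovered 99.5% of 197 changed genes with 3.92% of calls false. Whether these rates hold for the real libraries, which differed along GC content within a condition, was not tested. Whether they hold for changes of the size seen in the core histone genes was not tested either. CPM use TMM-scaled totals. Counts at an unadjusted p under 0.05 in this fit are given without a share over all tested genes. Windows of 50 bases were searched in hg38 on both strands.

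Genes and lists were chosen with earlier results of these data known. Values per library are given for the 2 highest genes per kb, the largest and smallest change of each class, genes not called and genes outside chromosome 6, and for NPAT, SLBP, HINFP and CASP8AP2. Other genes named were chosen after their values were seen. A gene of the replacement variants is not reported here. Alternatives were DESeq2 1.42.0, upper-quartile factors, ERCC totals, an ERCC factor as a covariate (1 factor of 14 ERCC RNAs), the likelihood ratio test, other count filters, a replicate block, removal of GC and length trends by lowess with a span of 0.3, subsets of genes and leaving out each library. A crossed block and the rows at H3C2, H3C3, H2AC18 and H2AC19 were added after seeing the data.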

Additional observations from a re-analysis of the deposited data

How the results depend on the processing

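Under the likelihood ratio test, upper-quartile factors, DESeq2, the ERCC factor and the removal of GC and length trends, 31 to 37 of the 38 tested core histone genes were called lower, where 4.61 to 7.46% of all tested genes were. Without a count filter it was 37 of 49 (4.26% of all), with at least 10 counts 36 (2.94%), among genes that overlap no other gene 31 of 32, with 90% of windows found once 25 of 27, under 1000 bases 20 of 21, where fewer genes are counted, and with the row at H3C2 added 37 of 39. With ERCC totals as library sizes 0 were called, and the medians were 0.059 for all 38, 0.074 for H2A, 0.12 for H2B, −0.11 for H3, −0.054 for H4, 0.059 for chromosome 6 and 0.13 for chromosome 1, where all tested genes had 0.63. The named genes above 0 were then H2AC20 at 0.13, H2AC14 at 0.15, H2AC17 at 0.34, H2AC21 at 0.15, H2AC25 at 0.047, H2BC17 at 0.27, H2BC12 at 0.11, H2BC7 at 0.34, H2BC18 at 0.32, H2BC21 at 0.26, H3C6 at 0.21, H4C3 at 0.054 and H4C1 at 0.22. With the ERCC factor the medians were −0.36 for all 38, −0.32 for H2A, −0.34 for H2B, −0.45 for H3, −0.39 for H4, −0.38 for chromosome 6 and −0.32 for chromosome 1. With the trends removed they were −0.38 for all 38, −0.23 for H2A, −0.41 for H2B, −0.44 for H3, −0.39 for H4, −0.38 for chromosome 6 and −0.32 for chromosome 1, and H2AC17 was at 0.058. The cause of these shifts was not tested. Leaving out 1 library gave 5 to 38 calls, the fewest without dTAG 2 (5) and dTAG 1 (22), with the lone library assumed to vary like the other condition. The most calls came without DMSO 1. Without DMSO 1, and also without DMSO 2, a larger share of all tested genes was called lower than in the main fit. With 1 library left out, medians lay between −0.71 and −0.46 for all 38, −0.75 and −0.42 for H2A, −0.68 and −0.41 for H2B, −0.98 and −0.55 for H3, −0.89 and −0.48 for H4, −0.71 and −0.48 for chromosome 6 and −0.76 and −0.39 for chromosome 1.

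The replicate numbers share no origin in the labels, and same-numbered libraries deviated against each other, with a correlation of −0.24. With the replicate block 32 of 38 genes were called, against 1.41% of all tested genes, and the median was −0.60. The calls of H2BC7, H2BC18, H4C1 and H4C8 were lost, with edgeR adjusted p of 0.15, 0.10, 0.087 and 0.056. That of NPAT was 0.13. With the numbers crossed 38 were called (12.7% of all). For the 22 genes with at most 28 counts, no change could be shown.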
